A study of Homo sapiens with 7 samples.

Results

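Genes of glucose breakdown and of the response to low oxygen were followed in SNU398, a widely used cell line from a human hepatocellular carcinoma, after exposure to 4 related peptides. The 10 genes, SLC2A1, HK2, PFKFB3, ALDOA, PGK1, ENO1, LDHA, VEGFA, CA9 and BNIP3, were taken by name from the 23710 genes of the deposited table, by a rule that uses no measured value, although the names were proposed with earlier results of these data known. Cells received 30 µM of PEN-FFW, PEN-WT, PEN-MUT or PEN for 8 hours, with a single RNA library for each. PEN is the cell-penetrating sequence penetratin, which the other peptides carry too. As background, PEN-WT adds the stretch of the transcription factor SALL4 that contacts RBBP4, which belongs to the NuRD chromatin complex. PEN-FFW adds an engineered variant of that stretch, and PEN-MUT a mutated form used as a control. Every group is thus a peptide-treated culture of 1 cell line at 1 dose and 1 time, and the labels state no oxygen level.

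Glycolysis turns glucose into pyruvate in the cytosol, and lactate dehydrogenase then turns pyruvate into lactate, which frees NAD+ for further rounds. When oxygen is short, the hypoxia-inducible factors HIF-1 and HIF-2 escape degradation and bind short DNA elements beside glycolytic genes and beside genes for blood vessel growth, acid balance and removal of mitochondria. Many liver tumours depend strongly on this pathway, and HK2 in particular is little expressed in healthy hepatocytes and gained in liver cancer.

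Depth ranged from 27347377 reads under PEN-FFW to 40717633 under PEN-WT, counted in genes above the lowest deposited value. The unit is the normalized count, the number of reads of a gene multiplied by 1 factor per library. As deposited, the median of the 12578 genes with a mean of at least 50 normalized counts was at -0.27 (log2) under PEN-FFW against PEN and -0.30 against PEN-MUT and PEN-WT. Differences are therefore log2(normalized count + 10) of 1 library minus another, set against that median gene. The ± sign gives the standard error from counting in both libraries. No difference has a replicate check and no test between peptides was possible. For scale, the middle 50% of all tested genes lay between -0.15 and 0.21 under PEN-FFW against PEN, between -0.10 and 0.12 under PEN-WT against PEN and between -0.09 and 0.08 under PEN-MUT against PEN. Of 14 hepatocyte markers, 9 were at the lowest deposited value in all 4 libraries, among them the keratins KRT8 and KRT18, and ALB had between 83.1 and 157 normalized counts, so most markers that define the labelled hepatocyte origin were at or near that value. How reads shared between near-identical copies were counted is not stated, so a gene at the lowest value is not shown to be silent. The 6 fibroblast markers summed to between 85305 and 99609 normalized counts, carried by COL3A1 and LUM, whereas COL1A1 averaged 171, COL1A2 24.9 and PDGFRB 5.43. Of 5 endothelial markers 4 were at the lowest value in every library, as were 4 of 6 immune markers, and their sums were at most 79.1 and 676.

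Of the 10 genes, 9 were measured in all libraries. Per length, ENO1 stood highest, with 22353 normalized counts per kb of its main transcript under PEN-FFW, 31349 under PEN-WT, 34058 under PEN-MUT and 33205 under PEN. Averaged over the 4 libraries, ALDOA followed with 14967 per kb, LDHA with 7812, PGK1 with 1942, BNIP3 with 1031, VEGFA with 466, HK2 with 350, PFKFB3 with 210 and SLC2A1 with 182. The ranges of VEGFA and HK2 over the libraries overlapped, as did those of PFKFB3 and SLC2A1, whereas the ranges of all other neighbours in this order were apart. Together the 10 genes took 0.335% of reads under PEN-FFW, 0.363% under PEN-WT, 0.392% under PEN-MUT and 0.389% under PEN.

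**Figure D1:**
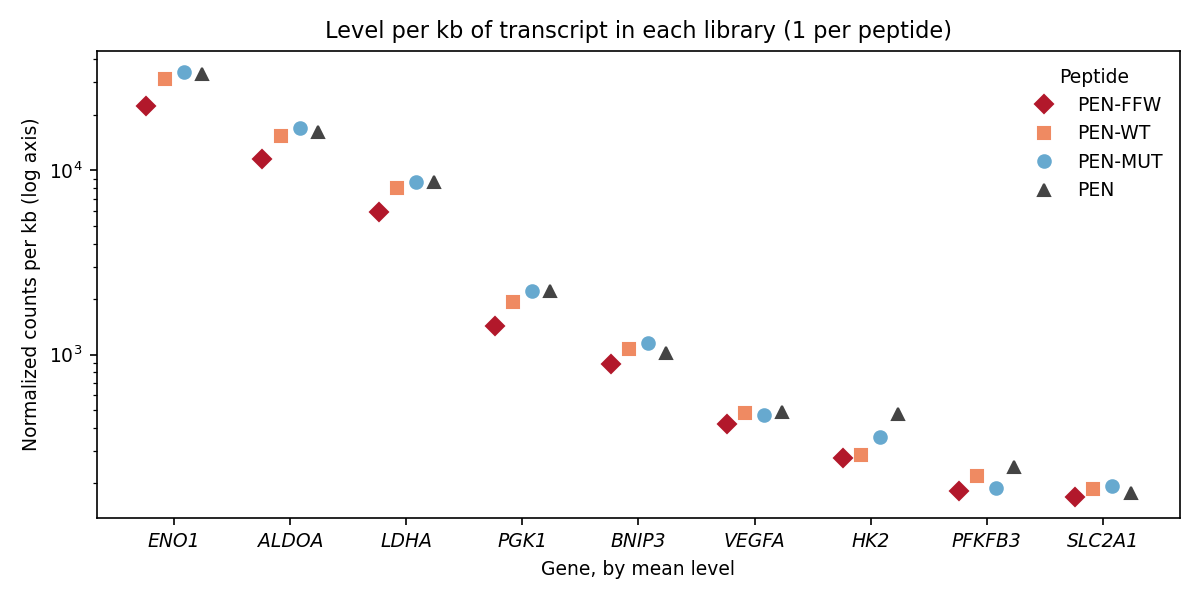
Normalized counts per kb of transcript (log axis) for the 9 measured genes in the PEN-FFW, PEN-WT, PEN-MUT and PEN libraries, 1 point per library. ENO1 stands highest with 22353 to 34058 per kb, and PEN-FFW has the lowest point of every gene.

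CA9, a membrane carbonic anhydrase that is among the most oxygen-sensitive of HIF-1 targets, was at the lowest deposited value of 5 in all 4 libraries. That value stands for at most 5 reads under PEN-FFW, 6 under PEN-WT, 5 under PEN-MUT and 5 under PEN. CA9 lies on chromosome 9 (35673925 to 35681156, plus strand, GRCh37), takes no part in the comparisons and gave no detectable signal at this depth. Its tumour relative CA12, named after its values were seen, was measured, with 222 normalized counts under PEN-FFW, 256 under PEN-WT, 271 under PEN-MUT and 286 under PEN.

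HK2 showed the widest spread of all 9 genes, 1.74-fold between its highest and lowest library. It codes for hexokinase 2, which traps glucose in the cell as glucose 6-phosphate, and lies on chromosome 2 (75061254 to 75120486, plus strand, GRCh37). HK2 had 1546 normalized counts under PEN-FFW, 1605 under PEN-WT, 2021 under PEN-MUT and 2693 under PEN. As deposited, PEN stood highest, PEN-MUT between, and PEN-FFW and PEN-WT lowest and close together. Relative to the median gene PEN-WT stood lowest, with PEN-FFW nearer to PEN-MUT. The difference from PEN was -0.53 ± 0.04 under PEN-FFW, -0.77 ± 0.04 under PEN-WT and -0.43 ± 0.04 under PEN-MUT. In PEN-WT, HK2 passed a 1.5-fold limit, the only member to do so in any of the 6 pairs of libraries, where 0.374% of all tested genes were lower by that much. Only 0.111% of tested genes lay below HK2 under PEN-WT against PEN, 0.731% under PEN-FFW and 1.22% under PEN-MUT. Against PEN-MUT, HK2 stood at -0.09 ± 0.05 under PEN-FFW, with a 95% counting interval from -0.18 to 0.01, and at -0.33 ± 0.04 under PEN-WT. Between PEN-FFW and PEN-WT, HK2 was 0.25 ± 0.05 higher under PEN-FFW relative to the median gene but -0.05 as deposited, so that its direction depends on the scaling.

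Among 6573 genes outside the lists with a mean of at least 1000 normalized counts, those closest to HK2 in their 3 differences from PEN were ETV5, ETV4 and JUNB. Likeness was the largest of the 3 gaps, 0.13 for ETV5, 0.17 for ETV4 and 0.18 for JUNB, over 4 libraries that all share PEN as the baseline. The glucose transporter gene SLC2A3 is in a list and so was no candidate, but it lay closer to HK2 than ETV5 did. Its differences from PEN were -0.50 under PEN-FFW, -0.67 under PEN-WT and -0.48 under PEN-MUT. ETV5, an ETS transcription factor, had 1427 normalized counts under PEN-FFW, 1757 under PEN-WT, 2161 under PEN-MUT and 2691 under PEN. JUNB, a subunit of AP-1, had 1244 under PEN-FFW, 1583 under PEN-WT, 1687 under PEN-MUT and 2453 under PEN. As deposited, PEN was the highest library for both genes and PEN-FFW the lowest, but relative to the median gene ETV5 stood at -0.64 from PEN under both PEN-FFW and PEN-WT.

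PFKFB3, whose product makes fructose 2,6-bisphosphate, the strongest activator of phosphofructokinase, had another order. The gene lies on chromosome 10 (6186897 to 6296607, plus strand, GRCh37). It had 820 normalized counts under PEN-FFW, 986 under PEN-WT, 850 under PEN-MUT and 1104 under PEN. PEN was again highest, but relative to the median gene PEN-MUT stood lowest, at -0.39 ± 0.06 from PEN, against -0.16 ± 0.06 under PEN-FFW and -0.19 ± 0.06 under PEN-WT. Against PEN-MUT, PFKFB3 was higher by 0.21 ± 0.06 under PEN-WT and by 0.25 ± 0.07 under PEN-FFW, though as deposited PEN-FFW stood at -0.05.

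SLC2A1, the glucose transporter GLUT1 that brings glucose into the cell, was the least abundant measured member and differed little. It lies on chromosome 1 (43391024 to 43424564, minus strand, GRCh37) and had 574 normalized counts under PEN-FFW, 630 under PEN-WT, 656 under PEN-MUT and 600 under PEN. All 4 libraries were within 1.14-fold of each other. Relative to the median gene it was at 0.21 ± 0.08 under PEN-FFW against PEN, which became -0.06 as deposited, at 0.04 ± 0.07 under PEN-WT and at 0.10 ± 0.08 under PEN-MUT.

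The enzymes of the trunk of glycolysis, ALDOA, PGK1, ENO1 and LDHA, shared 1 pattern: lowest under PEN-FFW, next under PEN-WT, and close together under PEN-MUT and PEN. ALDOA splits fructose 1,6-bisphosphate, PGK1 makes the first ATP of the pathway, ENO1 forms phosphoenolpyruvate and LDHA reduces pyruvate to lactate. ENO1 (chromosome 1, 8921059 to 8939249, minus strand of GRCh37) gave 39812 normalized counts under PEN-FFW, 55832 under PEN-WT, 60657 under PEN-MUT and 59138 under PEN. LDHA (chromosome 11, 18416107 to 18429972, plus strand) had 13252 under PEN-FFW, 17947 under PEN-WT, 19434 under PEN-MUT and 19396 under PEN. For both, PEN-FFW was the single low library as deposited, and PEN-WT lay under the controls by less than 10%.

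PGK1 (chromosome X, 77166236 to 77384792, plus strand) had 6891 normalized counts under PEN-FFW, 9256 under PEN-WT, 10629 under PEN-MUT and 10598 under PEN. ALDOA (chromosome 16, 30075485 to 30081778, plus strand) had 18742 under PEN-FFW, 25100 under PEN-WT, 27858 under PEN-MUT and 26481 under PEN. The order of libraries in these deposited counts was the same as for ENO1 and LDHA, with PEN-FFW alone far below the others. Relative to the median gene this gap was smaller. PEN-FFW minus PEN-WT was then -0.12 for PGK1, -0.19 for ENO1, -0.14 for LDHA and -0.12 for ALDOA. On that scale PEN-WT lay nearer to PEN-FFW than to PEN for PGK1, nearer to PEN for ENO1 and about midway for LDHA and ALDOA. As deposited, PEN-FFW held 0.650 of the PEN level for PGK1, 0.673 for ENO1, 0.683 for LDHA and 0.708 for ALDOA.

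Relative to the median gene the differences of PEN-FFW from PEN were smaller, at -0.35 ± 0.02 for PGK1, -0.30 ± 0.01 for ENO1, -0.28 ± 0.02 for LDHA and -0.23 ± 0.01 for ALDOA. Against PEN-MUT they were -0.33 ± 0.02 for PGK1, -0.31 ± 0.01 for ENO1, -0.25 ± 0.02 for LDHA and -0.27 ± 0.01 for ALDOA. PEN-WT stood at -0.23 ± 0.02 from PEN for PGK1, -0.11 ± 0.01 for ENO1, -0.14 ± 0.01 for LDHA and -0.11 ± 0.01 for ALDOA. The control peptides differed by at most 0.05 for any of the 4 enzymes. PEN-FFW was also below PEN-WT in each, with 95% counting intervals from -0.17 to -0.08 for PGK1, -0.20 to -0.17 for ENO1, -0.17 to -0.11 for LDHA and -0.15 to -0.09 for ALDOA.

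Abundance moved with these differences. In PEN-FFW against PEN the median of the 629 most abundant tested genes was -0.17, and that of the 629 least abundant was 0.32. Relative to genes of the same abundance, PEN-FFW stood at -0.18 from PEN for PGK1, -0.13 for ENO1, -0.11 for LDHA and -0.06 for ALDOA, while HK2 stayed at -0.48. Relative to genes of the same transcript GC content the values were -0.28 for PGK1, -0.35 for ENO1, -0.21 for LDHA and -0.41 for ALDOA, whose transcript has 60.5% GC. For PEN-FFW against PEN-WT the values relative to genes of the same abundance were -0.03 for PGK1, -0.03 for ALDOA, -0.05 for LDHA and -0.10 for ENO1. The part of abundance in the differences was not tested.

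**Figure D2:**
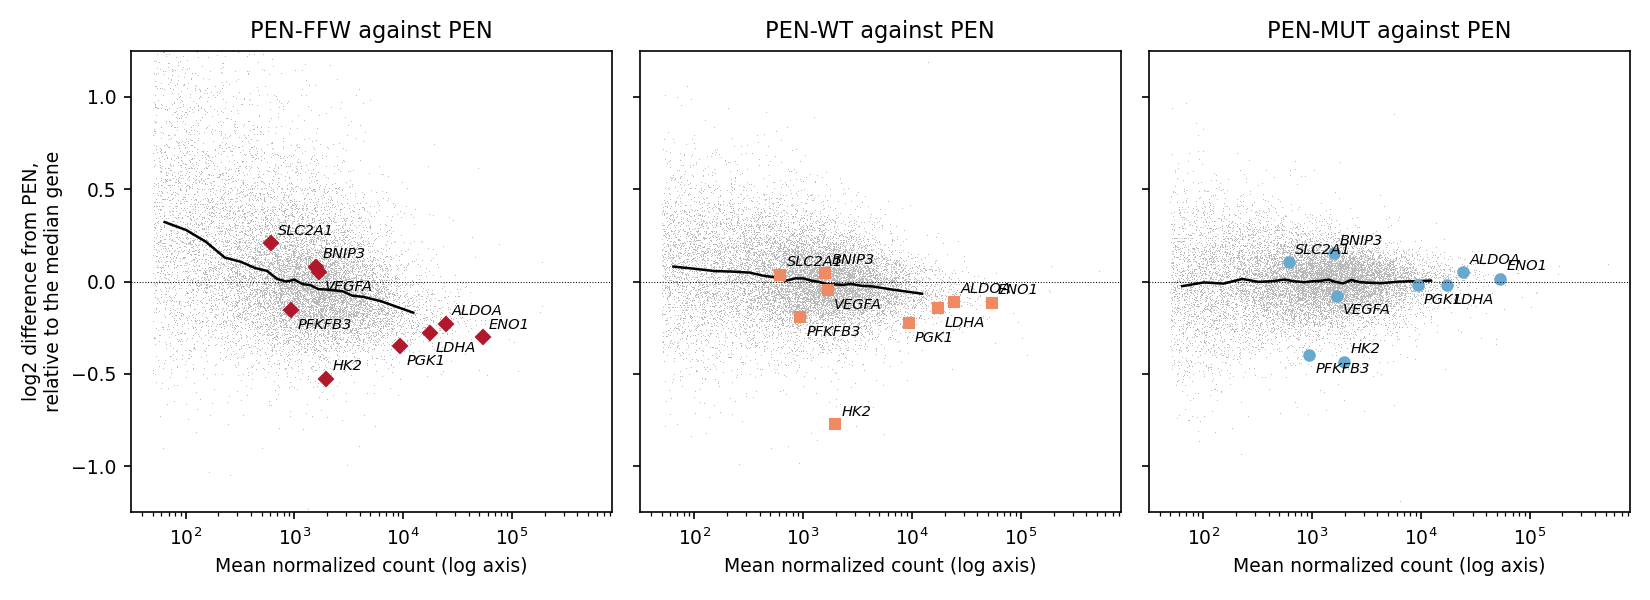
Log2 difference from PEN, with the median gene at 0, against the mean normalized count (log axis) for all tested genes (grey), with the 9 members marked and a black line through the medians of 20 bins of genes, in panels for PEN-FFW, PEN-WT, then PEN-MUT; 103, 5 and 1 genes lie beyond the vertical axis. The line ends at -0.17 under PEN-FFW, with PGK1, ENO1, LDHA and ALDOA below it, and HK2 lies far under the line in all 3 panels.

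Short DNA elements with the core ACGTG or GCGTG are what the hypoxia-inducible factors bind. Of the 6 members lower under PEN-FFW than under PEN (relative to the median gene), PFKFB3 is left out below. Further windows of HK2 (with 6 matches), LDHA and ALDOA are also left out. The other 5 members are shown with 1 promoter window each, as is BNIP3, which was lower only as deposited. Each window runs from 250 bases before to 50 bases from the start of transcription and is taken from RefSeq. It carries in capitals every ACGTG or GCGTG on either strand (CACGT or CACGC where the motif is on the other strand).
HK2 promoter (chr2:74833877-74834176, plus strand, GRCh38.p14): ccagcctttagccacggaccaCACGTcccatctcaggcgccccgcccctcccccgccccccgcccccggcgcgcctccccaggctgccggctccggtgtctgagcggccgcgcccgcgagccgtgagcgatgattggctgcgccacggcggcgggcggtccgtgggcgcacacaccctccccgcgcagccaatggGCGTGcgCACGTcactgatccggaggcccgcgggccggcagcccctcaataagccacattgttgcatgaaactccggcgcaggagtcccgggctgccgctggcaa
ALDOA promoter (chr16:30065510-30065809, plus strand, GRCh38.p14): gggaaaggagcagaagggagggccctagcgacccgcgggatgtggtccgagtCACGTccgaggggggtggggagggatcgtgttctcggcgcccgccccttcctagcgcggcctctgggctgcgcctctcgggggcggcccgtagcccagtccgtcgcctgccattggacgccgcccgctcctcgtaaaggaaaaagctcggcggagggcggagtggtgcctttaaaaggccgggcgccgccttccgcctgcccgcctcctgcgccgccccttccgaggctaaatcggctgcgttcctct
PGK1 promoter (chrX:78103998-78104297, plus strand, GRCh38.p14): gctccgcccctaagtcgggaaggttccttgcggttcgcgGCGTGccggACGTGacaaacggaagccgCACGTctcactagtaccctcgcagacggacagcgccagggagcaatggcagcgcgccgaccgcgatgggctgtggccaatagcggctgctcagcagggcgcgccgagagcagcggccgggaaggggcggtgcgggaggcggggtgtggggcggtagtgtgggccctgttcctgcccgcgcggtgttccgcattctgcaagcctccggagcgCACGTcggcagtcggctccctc
ENO1 promoter (chr1:8878637-8878936, minus strand, GRCh38.p14): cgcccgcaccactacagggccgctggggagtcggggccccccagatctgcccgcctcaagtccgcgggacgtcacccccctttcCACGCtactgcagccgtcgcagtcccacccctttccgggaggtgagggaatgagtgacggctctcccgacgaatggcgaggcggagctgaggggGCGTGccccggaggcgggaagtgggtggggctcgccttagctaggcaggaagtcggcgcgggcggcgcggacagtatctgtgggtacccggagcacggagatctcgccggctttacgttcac
LDHA promoter (chr11:18394313-18394612, plus strand, GRCh38.p14): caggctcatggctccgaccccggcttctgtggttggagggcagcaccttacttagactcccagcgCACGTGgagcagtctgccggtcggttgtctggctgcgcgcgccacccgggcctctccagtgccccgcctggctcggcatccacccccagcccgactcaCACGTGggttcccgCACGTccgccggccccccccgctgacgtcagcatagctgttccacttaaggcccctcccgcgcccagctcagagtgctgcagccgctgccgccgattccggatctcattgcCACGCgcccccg
BNIP3 promoter (chr10:131981874-131982173, minus strand, GRCh38.p14): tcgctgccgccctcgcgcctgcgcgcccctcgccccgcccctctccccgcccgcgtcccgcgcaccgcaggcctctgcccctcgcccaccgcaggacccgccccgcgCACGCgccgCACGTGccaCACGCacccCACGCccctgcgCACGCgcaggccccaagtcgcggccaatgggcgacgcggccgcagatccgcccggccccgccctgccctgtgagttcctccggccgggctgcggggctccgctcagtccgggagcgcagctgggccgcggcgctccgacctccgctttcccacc
All 14 RefSeq windows for 9 of the genes held ACGTG or GCGTG (VEGFA had no entry), against 48.4% of 35116 windows of that length and 62.8% of the 20200 windows with at least 55.7% GC, the lowest share among the members. The motif stood at 2 or more places in 8 of 14, against 23.0% of all windows and 33.2% of those with at least that GC. CACGTG, the E-box that contains ACGTG on both strands and so counts as 2 places, was in 5 of 14 windows, against 7.26% of all and 9.66% of those with at least that GC. These are matches of letters: the BNIP3 and LDHA windows shown each have 6 places and the CA9 window has 1. The members were chosen as genes of glycolysis and hypoxia, so a share above that of all windows is no separate support. Windows are not separate units either, as HK2, PFKFB3, LDHA and ALDOA have more than 1 and windows of ALDOA overlap. Member windows reached 80.7% GC, so the limit of 55.7% does not match their GC.

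VEGFA and BNIP3, HIF targets outside glycolysis, did not share the pattern of the enzymes. Both are also less abundant than those enzymes. Relative to genes of the same abundance, PEN-FFW stood at 0.09 from PEN for VEGFA and 0.12 for BNIP3. VEGFA, on chromosome 6 (43737921 to 43754224, plus strand, GRCh37), codes for the main growth factor of blood vessels. It had 1518 normalized counts under PEN-FFW, 1747 under PEN-WT, 1700 under PEN-MUT and 1767 under PEN, a 1.16-fold range. Relative to the median gene it stood at 0.05 ± 0.05 under PEN-FFW against PEN, with a counting interval from -0.04 to 0.14, and at -0.22 as deposited. In PEN-WT and PEN-MUT it was at -0.05 ± 0.04 and -0.08 ± 0.05.

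BNIP3, on chromosome 10 (133781188 to 133795471, minus strand, GRCh37), codes for a receptor on the outer mitochondrial membrane that marks mitochondria for autophagy. It had 1371 normalized counts under PEN-FFW, 1654 under PEN-WT, 1770 under PEN-MUT and 1565 under PEN. PEN-MUT was highest, at 0.16 ± 0.05 from PEN (interval 0.06 to 0.25), while PEN-WT was at 0.05 ± 0.05 and PEN-FFW at 0.08 ± 0.05, or -0.19 as deposited. Against PEN-MUT, BNIP3 stood at -0.07 ± 0.05 under PEN-FFW and at -0.10 ± 0.05 under PEN-WT (interval -0.19 to -0.01). The annotation names 44 BNIP3 pseudogenes, 6 of LDHA, 4 of ENO1, 2 of PGK1, 2 of ALDOA and 1 of HK2, none of which has a row in the table. How reads shared with such copies were counted is not given in the sources used here, so these levels are uncertain. Strand is likewise not stated: ENO1-AS1, antisense to ENO1, had 8.31 to 13.2 normalized counts. The annotated span of PGK1 also holds ATP7A on the same strand, with 385 normalized counts under PEN-FFW, 483 under PEN-WT, 552 under PEN-MUT and 511 under PEN.

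Taking the 9 measured genes as a list, 6 lay below the median gene under PEN-FFW against PEN, the median being -0.23. As deposited all 9 were below their PEN level, where the median gene itself stood at -0.27. For those 6 the 95% counting interval was wholly below 0, as it was for 30.9% of all tested genes, and for 1 (SLC2A1) it was wholly above (30.6% of all). Such intervals narrow with the number of reads. ALDOA, PGK1, ENO1 and LDHA are among the 629 most abundant tested genes, whose median in this pair was -0.17. The shares over all tested genes are therefore no matched background for the counts of intervals given here and below. None of the 9 was lower by 1.5-fold (0.437% of all) or higher by it (7.24% of all). In PEN-WT against PEN, 7 were below, the median was -0.11, 6 intervals lay below 0 (25.4% of all) and 0 above (23.1% of all). HK2 was the 1 gene lower by 1.5-fold (0.374% of all) and 0 were higher (0.827% of all). In PEN-MUT against PEN, 5 were below with a median of -0.02, and 2 intervals lay below 0 (19.4% of all), those of HK2 and PFKFB3, and 2 above (17.9% of all), those of ALDOA and BNIP3. None passed 1.5-fold downwards (0.35% of all) or upwards (0.215% of all). These 3 comparisons share the PEN library.

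Set against PEN-MUT, the median was -0.09 under PEN-FFW, with 4 of 9 intervals below 0 (28.8% of all) and 2 above (29% of all). It was -0.12 under PEN-WT, with 6 of 9 below (19.5% of all) and 1, that of PFKFB3, above (19.7% of all). No member passed 1.5-fold against PEN-MUT, where 0.0875% of all genes were lower and 7.24% higher by that much under PEN-FFW, and 0.0159% lower and 0.898% higher under PEN-WT. PEN-FFW against PEN-WT gave a median of 0.03 relative to the median gene and -0.27 as deposited, with 4 of 9 intervals below 0 (23.6% of all) and 3 above (24.5% of all), and 0 past 1.5-fold (0.0318% of all lower and 4.17% higher). Those 4 were the enzymes ALDOA, PGK1, ENO1 and LDHA, and those 3 were SLC2A1, HK2 and VEGFA, each of which was lower under PEN-FFW as deposited. For PFKFB3 the interval ran from -0.08 to 0.16 and for BNIP3 from -0.06 to 0.13.

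**Figure D3:**
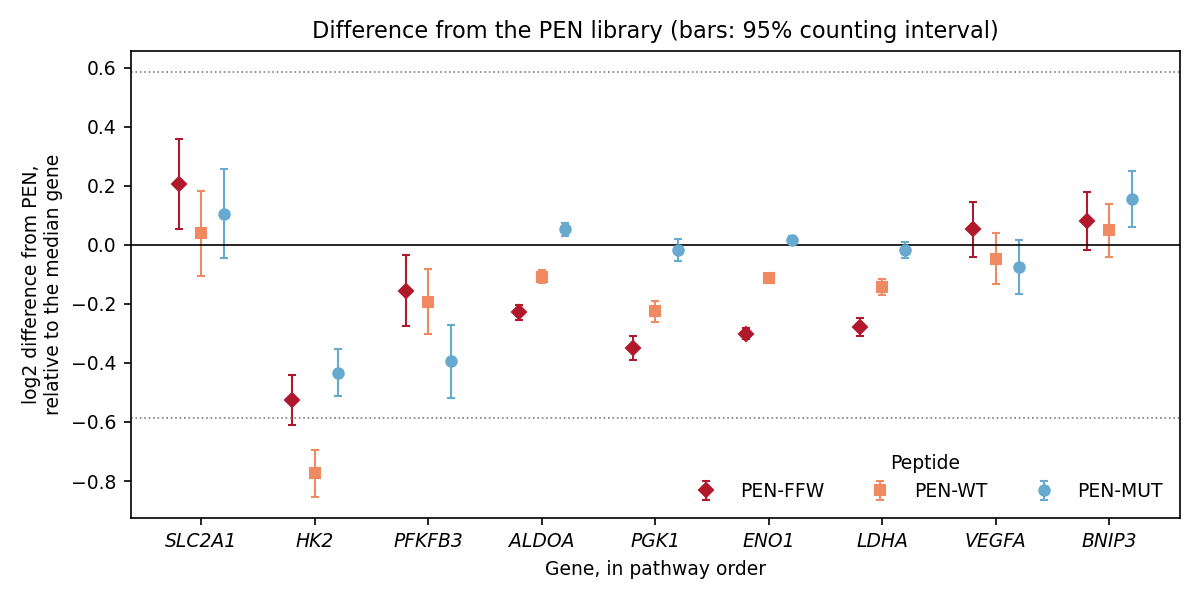
Log2 difference from PEN, with the median gene at 0, for the 9 measured genes in pathway order, with 1 marker for each peptide; bars are 95% intervals for counting error in single libraries and dotted lines mark 1.5-fold. HK2 lies at -0.53, -0.77 and -0.43, and the enzymes from ALDOA to LDHA are low under PEN-FFW and PEN-WT with PEN-MUT between -0.02 and 0.05. VEGFA lies near 0, and BNIP3 lies at 0.08 under PEN-FFW, 0.05 under PEN-WT and 0.16 under PEN-MUT.

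The other enzymes of glycolysis were described as a list of their own. Of 15 listed, 12 were measured and 9 lay below the median gene under PEN-FFW against PEN, the median being -0.14. Past 1.5-fold were 0, against 0.437% of all tested genes lower and 7.24% higher. The medians were -0.07 under PEN-WT and 0.01 under PEN-MUT. Relative to genes of the same abundance the PEN-FFW median was -0.04, set against genes of like GC content it was -0.22, and against PEN-MUT it was -0.16. PFKP, the platelet phosphofructokinase, was the lowest, with 3716 normalized counts under PEN-FFW, 4811 under PEN-WT, 5304 under PEN-MUT and 5748 under PEN, or -0.36 ± 0.03 under PEN-FFW. ENO2, the neuronal enolase, went the other way relative to the median gene (0.27 ± 0.06 under PEN-FFW and 0.27 ± 0.05 under PEN-WT), with 1185 normalized counts under PEN-FFW, 1462 under PEN-WT, 1293 under PEN-MUT and 1183 under PEN. The muscle enolase gene ENO3 was low, with 101 normalized counts under PEN-FFW, 82.3 under PEN-WT, 74.0 under PEN-MUT and 86.5 under PEN (0.47 ± 0.18 under PEN-FFW against PEN). Against PEN-MUT, ENO3 was the 1 gene of the list higher by 1.5-fold under PEN-FFW (7.24% of all), at 0.70 ± 0.19. LDHB, the other main subunit of lactate dehydrogenase, was at the lowest deposited value in all 4 libraries, with the same doubt about reads shared between copies.

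Of 7 listed genes of sugar and lactate transport, 3 were measured, and 2 of them lay below the median gene under PEN-FFW against PEN. SLC2A3, the high-affinity glucose transporter GLUT3, had 1715 normalized counts under PEN-FFW, 1878 under PEN-WT, 2131 under PEN-MUT and 2929 under PEN. PEN was alone at the top, as for HK2, and the differences from PEN were -0.50 ± 0.04 under PEN-FFW, -0.67 ± 0.04 under PEN-WT, which is past 1.5-fold, and -0.48 under PEN-MUT. The lactate transporter SLC16A1 had 7290 under PEN-FFW, 8859 under PEN-WT, 9894 under PEN-MUT and 9904 under PEN. It stood at -0.17 ± 0.02 from PEN under PEN-FFW and -0.19 ± 0.02 under PEN-WT. Its partner protein gene BSG was at 0.03 ± 0.01 under PEN-FFW, with 18840 normalized counts under PEN-FFW and 22320 under PEN.

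Enzymes that set the flow into and out of glycolysis went in both directions. Of 8 measured PFKFB, PDK and related genes, 5 lay above the median gene under PEN-FFW against PEN, the median being 0.20, or -0.06 as deposited with 6 of 8 below 0. PDK2, a kinase that inhibits pyruvate dehydrogenase, had 790 normalized counts under PEN-FFW, 887 under PEN-WT, 842 under PEN-MUT and 730 under PEN (0.38 ± 0.07 under PEN-FFW). PDP2, the phosphatase that opposes it, stood at 0.36 ± 0.07 under PEN-FFW and 0.10 ± 0.06 under PEN-WT, and PFKFB4 at 0.25 ± 0.09 and 0.27 ± 0.08, though PFKFB4 had 418 normalized counts under PEN-FFW and 423 under PEN. Unlike these, PDK1, a HIF-1 target named after its values were seen, was below PEN under PEN-FFW (-0.20), PEN-WT (-0.28) and PEN-MUT (-0.36).

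Other HIF target genes went in both directions. Of 25 listed, 20 were measured, 8 lay below the median gene under PEN-FFW against PEN, and the median was 0.04, or -0.23 as deposited. Past 1.5-fold were 2 higher under PEN-FFW (7.24% of all tested genes) and 1 lower (0.437% of all). There was 1 higher (0.827% of all) and 1 lower (0.374% of all) under PEN-WT, and 1 higher under PEN-MUT (0.215% of all). DDIT4, an inhibitor of the growth kinase mTORC1, had 654 normalized counts under PEN-FFW, 896 under PEN-WT, 782 under PEN-MUT and 489 under PEN, and was higher than PEN by 0.68 ± 0.08 under PEN-FFW, 0.83 ± 0.07 under PEN-WT and 0.65 under PEN-MUT. PPP1R3C, which targets a phosphatase to glycogen, had 269 under PEN-FFW, 338 under PEN-WT, 355 under PEN-MUT and 506 under PEN, with -0.62 ± 0.10, -0.60 ± 0.09 and -0.52 from PEN. For both genes PEN stood apart from all 3 other libraries. PPFIA4, a liprin scaffold gene, was highest under PEN-FFW and next under PEN-WT. It had 360 normalized counts under PEN-FFW, 245 under PEN-WT, 186 under PEN-MUT and 203 under PEN. From PEN it stood at 1.07 ± 0.11 under PEN-FFW, 0.23 ± 0.12 under PEN-WT and -0.14 ± 0.13 under PEN-MUT.

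Components of the oxygen-sensing machinery lay near the median gene as a list, with medians of -0.07 under PEN-FFW, 0.02 under PEN-WT and 0.03 under PEN-MUT over 11 measured genes. HIF1A, the oxygen-regulated subunit of HIF-1, named after its values were seen, had 4415 normalized counts under PEN-FFW, 5858 under PEN-WT, 6163 under PEN-MUT and 5648 under PEN (-0.08, 0.02 and 0.10 from PEN). EPAS1, which codes for the HIF-2 subunit, was near the filter, with 67.4 under PEN-FFW, 76.1 under PEN-WT, 48.0 under PEN-MUT and 47.0 under PEN, a difference of 0.71 ± 0.22 under PEN-FFW and 0.56 ± 0.20 under PEN-WT. It reached the mean of 50 only through the libraries where it was high, so its difference supports nothing. TCEB1, the elongin C gene of the ligase that destroys HIF subunits, stood at -0.42 ± 0.05 under PEN-FFW and -0.26 ± 0.04 under PEN-WT, and RBX1 of the same ligase at -0.28 ± 0.05 and -0.08 ± 0.04.

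Relatives of VEGFA, CA9 and BNIP3 were described in the same way. VEGF ligands and receptors (5 measured of 9) had a median of 0.11 under PEN-FFW against PEN, or -0.16 as deposited, with NRP2, a VEGF co-receptor, at 0.13 ± 0.02, the receptor FLT4 at 0.17 ± 0.07 and PGF at -0.13 ± 0.21. All 5 were lower under PEN-FFW than under PEN as deposited, and set against genes of like GC content the median was -0.05. Carbonic anhydrases (4 measured of 13) had a median of 0.08, or -0.19 as deposited and -0.14 relative to genes of the same abundance. Among them CA11 was at 0.08 ± 0.05, CA13 at 0.16 ± 0.17 and CA5B at 0.08 ± 0.19, and all 4 measured genes were lower under PEN-FFW as deposited. Mitophagy genes (7 measured of 8) had medians of 0.09 under PEN-FFW (-0.18 as deposited), 0.12 under PEN-WT and 0.13 under PEN-MUT. Above the median gene were 5 of 7 under PEN-FFW, 6 of 7 under PEN-WT and 7 of 7 under PEN-MUT, where the median lay beyond the upper quartile of all genes (0.08). Among them were OPTN at 0.23 ± 0.05 and PINK1 at 0.14 ± 0.06 under PEN-FFW with FUNDC1 below it at -0.16 ± 0.11; as deposited all 7 were lower under PEN-FFW.

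**Figure D4:**
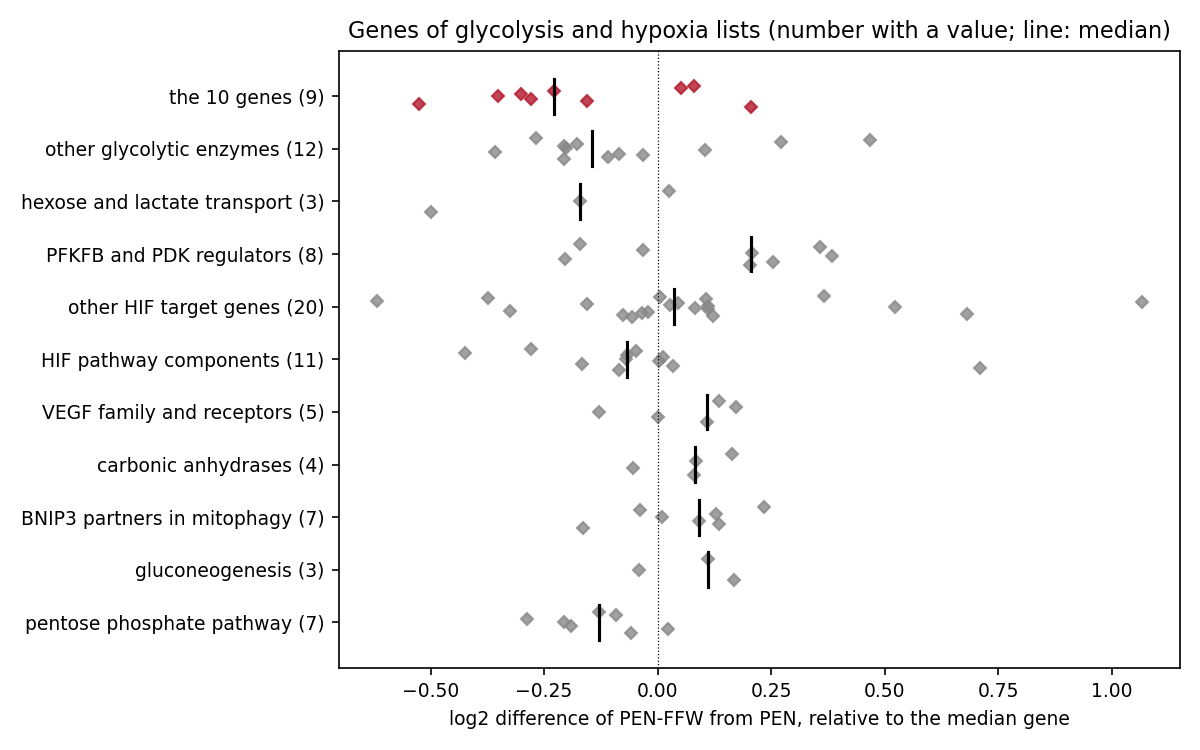
Log2 difference of PEN-FFW from PEN, relative to the median gene, for each measured gene (points) of the 10 genes and of 10 related lists, with the number measured in brackets and the list median as a line. The 10 genes have a median of -0.23 and other glycolytic enzymes -0.14, while PFKFB and PDK regulators lie at 0.20 and other HIF targets at 0.04 with the widest spread.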

How the data were processed

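RNA was sequenced from 4 libraries, 1 per peptide; the other 3 samples of the series (chromatin immunoprecipitation and input) are not analysed here. The deposited file holds log2 values per gene. Per the labels, the authors mapped paired-end reads to hg19 using STAR; the submitters' processing notes name version 2.4.0i and featureCounts 1.5.0-p1. For annotation, strand setting and normalization, the method is not given in the sources. Undoing the log gave, for 100% of values above the floor of 5, whole multiples (tolerance 0.1 read) of 1 step per library: 0.923 for PEN-FFW, 0.776 for PEN-WT, 1 for PEN-MUT and 0.840 for PEN. Reads were recovered by dividing by it.

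Genes averaging 50 or more normalized counts were kept (12578, 53.0%). Differences used a pseudocount of 10, which understates the change of low genes, and were centred on the median kept gene. Errors are Poisson counting errors only: they leave out the variation between cultures and treat each fragment as a separate molecule. The calculation, in Python 3.11.15 with numpy 2.4.6, pandas 2.3.3, scipy 1.17.1 and matplotlib 3.10.9, was tested on simulated data. A fold of 1.5 stood in for a test. From each related list, at most 3 genes farthest from PEN in PEN-FFW were named by rule. Members and lists were chosen with earlier results of these data known. Positions, transcript lengths and GC content came from GENCODE 44 lifted to GRCh37 (20574 genes matched by symbol, 1572 by a RefSeq synonym, 1564 not), which may differ from the authors' annotation. Alternatives covered pseudocount, filter, scaling and centring.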

Additional observations from a re-analysis of the deposited data

How the results depend on the processing

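No paired analysis was possible because each peptide has 1 library, and for the same reason none could be left out. Across 9 alternatives HK2, PFKFB3, LDHA, PGK1, ENO1 and ALDOA stayed below 0 under PEN-FFW against PEN, while SLC2A1, VEGFA and BNIP3 were below 0 in 2, as deposited and with no filter, which both keep the lower median of PEN-FFW. As deposited, the median over the genes was -0.50 for PEN-FFW against PEN with 2 genes past 1.5-fold (HK2 and PGK1). For PEN-FFW it was -0.38 against PEN-MUT with 2 (PGK1 and ENO1) and -0.27 against PEN-WT, and for PEN-WT against PEN -0.0830. With no filter on low values these medians were -0.46 with 2, -0.38 with 2, -0.22 and -0.0801, now with CA9 among the genes. How many of all genes passed 1.5-fold as deposited or unfiltered was not counted, and the median gene itself was lower under PEN-FFW. A minimum mean of 500 gave -0.18 for PEN-FFW and -0.10 for PEN-WT against PEN, and scaling by total reads gave -0.17 and -0.0774. Set against genes of like abundance, the medians became -0.11 for PEN-FFW and -0.0477 for PEN-WT against PEN, and -0.0722 for PEN-WT against PEN-MUT. Set against genes of like GC content, PEN-WT was at -0.14 against PEN and -0.0801 against PEN-MUT. HK2 was past 1.5-fold for PEN-WT against PEN in all 9. Why the medians moved was not tested beyond what each setting does by construction. Depth limits CA9, which had no reads above the floor, and of the measured genes SLC2A1 had the fewest reads under PEN-FFW (622).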

Other observations

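The pentose phosphate pathway, which branches off after hexokinase and supplies NADPH and ribose, was measured in full. Of its 7 listed genes, 6 were below the median gene against PEN (median -0.13) and 7 against PEN-MUT (median -0.19), or 6 when scaled by total reads. RPIA, the ribose 5-phosphate isomerase, had 1179 normalized counts under PEN-FFW, 1553 under PEN-WT, 1657 under PEN-MUT and 1740 under PEN, a difference of -0.29 ± 0.05 under PEN-FFW. RPE stood at -0.21 ± 0.04 and the NADPH-forming PGD at -0.19 ± 0.03. The medians against PEN were -0.08 under PEN-WT and 0.01 under PEN-MUT. Relative to genes of the same abundance the PEN-FFW median against PEN was -0.05, and the -0.13 lay within the middle 50% of all genes (-0.15 to 0.21).

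Gluconeogenesis, the liver pathway that runs glycolysis backwards, was little represented: of 7 genes, 3 were at the lowest deposited value in all libraries and 3 were measured. PCK2, the mitochondrial phosphoenolpyruvate carboxykinase, had 1229 normalized counts under PEN-FFW, 1794 under PEN-WT, 1688 under PEN-MUT and 1320 under PEN. It stood at 0.17 ± 0.05 from PEN under PEN-FFW, or -0.10 as deposited, at 0.41 ± 0.05 under PEN-WT and at 0.33 under PEN-MUT. G6PC3 was at -0.04 ± 0.07 and PC at 0.11 ± 0.07 under PEN-FFW.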
